A study of Mus musculus with 2 samples.

Results

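Retinoic acid is made inside cells from vitamin A, and 9 genes of that pathway were examined in mouse pancreatic islets: the retinaldehyde dehydrogenase genes Aldh1a1, Aldh1a2 and Aldh1a3, the retinol and retinaldehyde enzyme genes Rdh10 and Dhrs3, the retinoic acid receptor genes Rara, Rarb and Rarg, and the breakdown enzyme gene Cyp26b1. Every probe set that the platform annotation pairs with a single one of these genes was taken, which gave 13 probe sets of the 45037 on each array. The set was chosen partly on the ratio of Aldh1a3 on these same arrays, so all values of the 9 genes are given as descriptions. The study compared islets of mice with a beta cell-specific knockout of the transcription factor gene Zbtb20 (1 array) with islets of littermate controls labelled wildtype (1 array), to look for the genes that ZBTB20 controls in beta cells. The mice had a mixed background and an age of 2 to 3 months, and the hand-picked islets had been cultured overnight. The Cre driver, the floxed exons, any transgene carried by the controls and the number of animals behind an array are not given in the sources used here.

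Retinol is oxidised reversibly to retinaldehyde, a step that RDH10 drives forward and DHRS3 drives back. The ALDH1A enzymes then oxidise retinaldehyde to retinoic acid, which cannot be turned back. Retinoic acid binds receptors of the RAR family, which sit on DNA together with RXR partners and switch target genes, and CYP26 enzymes destroy it. In mouse islets, Aldh1a3 is best known as a gene that comes on in failing, dedifferentiating beta cells of diabetic animals.

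Each group was a single array, so replicates, a measure of error between animals and a test are all lacking, and each ratio compares 2 RNA preparations. Values are MAS5 signals, linear probe set intensities that the Affymetrix software derives from matched and mismatched probes. They depend on the probes, so ratios set a signal against that of the same probe set on the other array, and the 9 genes were not put in an order of level. The median signal of each array, 21.7 in knockout islets and 21.6 in control islets, served as a floor: lower signals were raised to it before a ratio was taken, and such a ratio is a lower bound, written as "at least". The floor is no detection limit. The array labelled knockout did not show a loss of Zbtb20 itself, with 4 of 9 Zbtb20 probe sets higher and 5 lower than in the control and log2 ratios between -0.87 and 0.54. Whether any of these probe sets lies in the deleted part is not known, and other islet cells keep the gene. The array is therefore meant by its label wherever knockout islets are named.

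The tissue label held on both arrays. All 8 measured beta cell markers were above the floor on both, including Ins2 (insulin) at 7786 in knockout islets and 9194 in control islets. Markers of other cells differed: acinar markers summed to 17893 in knockout islets and 33204 in control islets (7 of 8 measured genes above the floor), and macrophage and dendritic cell markers summed to 1493 in knockout islets and 886 in control islets (9 of 10 above the floor). In tissue RNA, fewer cells of a type and less RNA per cell cannot be told apart.

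Aldh1a3, which encodes a retinaldehyde dehydrogenase, had the largest difference of the 9 genes and was higher in knockout islets in all 3 of its probe sets. Probe set 1448789_at gave a signal of 324 in knockout islets and 22.2 in control islets, a ratio of 14.6-fold (log2 ratio 3.87). Probe set 1417642_at gave 191 in knockout islets against 9.3 in control islets, at least 8.86-fold. Probe set 1427395_a_at, whose suffix marks probes shared by several transcripts of a gene, gave 144 in knockout islets against 20.2 in control islets, at least 6.67-fold. In knockout islets each of the 3 signals lay well inside the range of measured transcripts, between the 80.9th and the 90th percentile of all probe sets on the array. In control islets each lay near or under the middle of the array, between the 31.3rd and the 50.5th percentile, so that the size of the difference depends on a control signal close to background. Among the 1000 probe sets nearest in mean signal to 1448789_at, the central 95% of log2 ratios ran from -0.75 to 0.92. The median SD of log2 ratios among probe sets of the same gene, each above the floor on both arrays, was 0.21 over 4719 genes. That measure leaves out all variation between animals, and also probe sets under the floor on 1 array, such as 1417642_at and 1427395_a_at.

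The other retinaldehyde dehydrogenase genes did not show a comparable difference. Aldh1a2, the main retinoic acid-making enzyme of the early embryo, gave 24.7 in knockout islets and 22.6 in control islets, both next to the floor, a 1.09-fold ratio. Aldh1a1, widely expressed in adult epithelia, gave 6.6 in knockout islets and 2.6 in control islets, under the floor on both arrays, so no ratio is given. Each of these genes had a single probe set, so nothing on these arrays checks it against another.

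**Figure D1:**
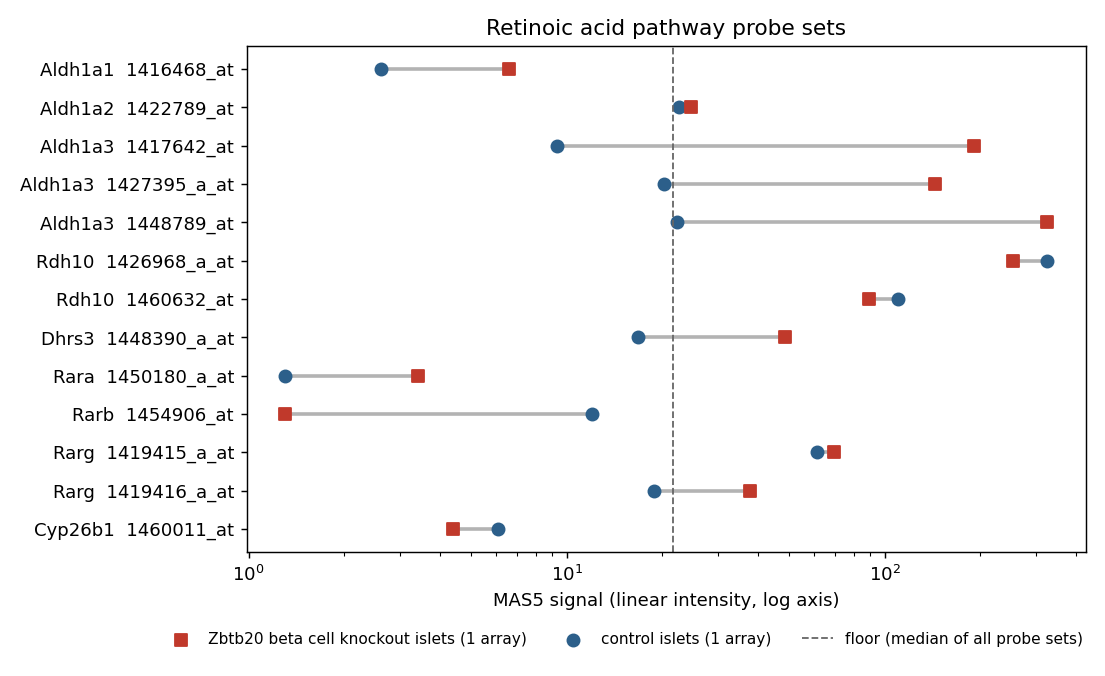
MAS5 signals (log axis) of the 13 probe sets of the 9 genes in Zbtb20 beta cell knockout islets (squares, 1 array) and control islets (circles, 1 array), with a dashed line at the median of all probe sets. The 3 Aldh1a3 probe sets have long bars that reach far right of the line, with knockout signals of 144 to 324 and control signals of 9.3 to 22.2, whereas Aldh1a1, Rara, Rarb and Cyp26b1 lie left of the line on both arrays.

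The enzymes that set the supply of retinaldehyde differed in direction. Rdh10, the retinol dehydrogenase that makes retinaldehyde, gave 254 in knockout islets and 325 in control islets in probe set 1426968_a_at, 1.28-fold lower. Its other probe set, 1460632_at, gave 89.2 in knockout islets and 110 in control islets, 1.23-fold lower. The log2 ratios of -0.35 and -0.30 lay inside the central 95% of probe sets of similar signal, which ran from -0.59 to 0.77 for the brighter probe set and from -0.74 to 0.79 for the other.

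Dhrs3, the reductase that returns retinaldehyde to retinol and a gene that retinoic acid itself induces in many cells, gave 48.7 in knockout islets and 16.8 in control islets. That was at least 2.25-fold higher (log2 ratio at least 1.17), measured in 1 probe set whose control signal was under the floor. Probe sets of similar signal spread widely, with 95% of their log2 ratios between -1.18 and 1.23. Dhrs3 has the largest ratio that the floor allows at its mean signal, so nothing is read from its place inside that range. Without a floor and after adding 16 to each signal, its log2 ratio was 0.98, short of 2-fold.

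The receptor genes gave little signal apart from Rarg. Rarg, which encodes retinoic acid receptor gamma, gave 69.3 in knockout islets and 61.2 in control islets in probe set 1419415_a_at, a 1.13-fold ratio. In probe set 1419416_a_at it gave 37.7 in knockout islets against 18.8 in control islets, at least 1.75-fold. Both were higher in knockout islets. The ratio of 1419415_a_at lay inside the spread of probe sets of similar signal (-0.76 to 0.95 on the log2 scale). That of 1419416_a_at is a lower bound and the largest ratio that the floor allows at its mean signal. Nothing is therefore read from its place within its own spread (-0.88 to 0.94). Rara, the gene of receptor alpha, gave 3.4 in knockout islets and 1.3 in control islets, under the floor on both arrays.

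Rarb, the gene of receptor beta, is the textbook target of retinoic acid: its promoter carries a response element to which RAR and RXR bind. It gave 1.3 in knockout islets and 12 in control islets in probe set 1454906_at. Both signals were under the floor, at the 7.61st percentile of the knockout array and the 36.5th of the control array, so no level of Rarb can be read from this probe set and no ratio is given. The promoter window of Rarb is shown because it holds the DNA element through which retinoic acid acts on this gene. It covers 250 bases before and 50 bases after a transcription start, from RefSeq on GRCm38.p6, chr14:16575427-16575726, minus strand, and is written 5′ to 3′. Capitals mark a DR5 element, a direct repeat of 2 cores of 6 bases spaced by 5 bases.
Rarb promoter: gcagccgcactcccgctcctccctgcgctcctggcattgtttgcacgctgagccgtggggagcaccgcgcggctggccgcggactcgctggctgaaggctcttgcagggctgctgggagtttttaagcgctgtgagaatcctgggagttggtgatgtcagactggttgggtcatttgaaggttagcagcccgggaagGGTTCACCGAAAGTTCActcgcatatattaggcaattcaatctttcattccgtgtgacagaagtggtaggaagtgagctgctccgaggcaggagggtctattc

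The element, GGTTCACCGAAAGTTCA, begins 53 bases before the start and occupies chr14:16575513-16575529. The core was AGGTCA, its variant AGTTCA, its other variant GGGTCA, or the last variant, GGTTCA, searched on both strands. Of all 32851 promoter windows in the RefSeq set, 32 held such a DR5 element (0.0974%), and windows of a gene with several starts can overlap. Windows were matched for 7 of the 9 genes, 14 windows in all: Aldh1a1, Aldh1a2, Dhrs3, Rara, Rarb, Rarg and Cyp26b1. The Rarb window was the only 1 of the 14 with the element. The 3 Dhrs3 windows did not contain these letters, and Aldh1a3 and Rdh10 were not matched.

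Cyp26b1, which encodes an enzyme that destroys retinoic acid, gave 4.4 in knockout islets and 6.1 in control islets, under the floor on both arrays. Cyp26a1, the related breakdown enzyme and a strongly retinoic acid-induced gene, gave 3.7 in knockout islets and 2.2 in control islets and was also under the floor. Cyp26c1 was not analysed here.

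Across the 13 probe sets, 5 were above the floor on both arrays, 4 on the knockout array only, and 4 on neither. At least 2-fold higher in knockout islets were 4 probe sets, the 3 of Aldh1a3 and that of Dhrs3, and none was at least 2-fold lower. Over all 21257 probe sets with 1 gene and a signal above the floor on at least 1 array, 1.88% were past 2-fold upward and 1.29% downward. Because the genes were picked with these ratios known, and 3 of the 4 probe sets belong to 1 gene, nothing is read from the count. By brightest probe set, 5 of the 9 genes were above the floor on at least 1 array, Dhrs3 through the knockout array alone, with a median log2 ratio of 0.18 against 0.000 over 11857 genes.

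**Figure D2:**
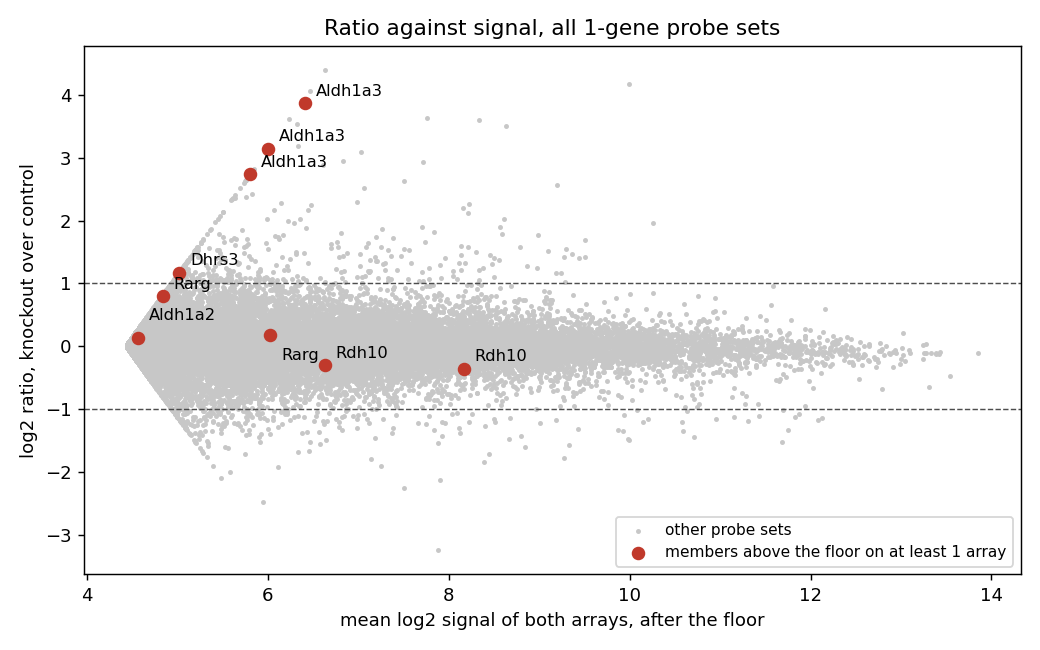
Log2 ratio of knockout over control islets against the mean log2 signal of both arrays for the 21257 probe sets with 1 gene above the floor on at least 1 array (grey), with the 9 such probe sets of the pathway genes in red and dashed lines at 2-fold. The 3 Aldh1a3 probe sets stand at log2 ratios of 2.74 to 3.87 along or next to the slanted upper edge, which is formed by probe sets with control signals at the floor, Dhrs3, Aldh1a2 and the dimmer Rarg probe set lie lower along that edge, and both Rdh10 probe sets and the brighter Rarg probe set lie within the grey cloud.

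The wider pathway was read from 7 lists with 93 genes outside the 9, of which 85 had a probe set and 51 were above the floor on at least 1 array. Of these 51, 5 passed 2-fold upward in knockout islets (9.8%) and 1 reached it downward (1.96%), and their median log2 ratio was 0.07. Over all 11857 genes the shares were 1.86% higher and 1.44% lower. The list of genes noted beside Aldh1a3 in dedifferentiated beta cells was drawn up with its high members known. Without it, 3 of 46 genes were higher (6.52%) and 1 was lower (2.17%). The other lists were also chosen with earlier results of these arrays known, so nothing is read from these shares. The 3 higher genes, Hoxa3, Aldh3b2 and Aldh16a1, had control signals of 23.4, 22.4 and 16.7, next to or under the floor. At such signals the floor limits how large a ratio can be. The log2 ratios of Hoxa3 (1.08), Aldh3b2 (1.05) and Aldh16a1 (at least 1.41) were therefore not judged by probe sets of similar signal. The second probe set of Aldh16a1 gave -0.45.

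Genes that bring in, carry and store retinoids stayed within 2-fold. Of 15 measured genes in that list, 8 were above the floor on at least 1 array, with log2 ratios from -0.47 to 0.55 and a median of -0.12. Ttr, the carrier that holds retinol-binding protein in plasma and is abundant in islet alpha cells, gave 10091 in knockout islets and 14021 in control islets in its brightest probe set (log2 ratio -0.47). All 4 Ttr probe sets were lower, with log2 ratios from -0.47 to -0.28. Rbp4, retinol-binding protein itself, gave 2333 in knockout islets and 1710 in control islets, 1.36-fold higher. Its log2 ratio of 0.45 lay just above the range of probe sets of similar signal (-0.79 to 0.40). Scarb1, a lipoprotein receptor that also takes up carotenoids, was higher in all 3 of its probe sets, at 131 in knockout islets against 89.8 in control islets in the brightest (log2 ratio 0.55).

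The cellular retinoic acid-binding protein genes were under the floor on both arrays, so no ratio is given. Crabp1 gave 14.5 in knockout islets and 2.3 in control islets, and Crabp2 gave 0.6 in knockout islets and 2 in control islets. Lrat, which stores retinol as esters, and Stra6, the receptor for retinol-binding protein, were under the floor on both arrays as well. Rbp3, the retinoid-binding protein of the eye, gave 30.5 in knockout islets and 20.3 in control islets, at least 1.41-fold, near the floor.

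Other retinol and retinaldehyde oxidoreductases showed no common direction, with 5 above and 5 below 0 among 10 genes above the floor on at least 1 array and none counted at 2-fold, although the ratios of Rdh12 and Adh7 are bounds. Rdh11, a reductase of retinaldehyde, gave 187 in knockout islets and 132 in control islets (log2 ratio 0.50), and its other probe set gave 0.46. Rdh12, a related photoreceptor enzyme, gave 43 in knockout islets and 1.9 in control islets, at least 1.99-fold, while its other probe set was under the floor on both arrays. Its log2 ratio was at least 2.31 when the floor was set at the 30th percentile, and 1.72 after adding 16 to each signal in place of a floor. Adh7, an alcohol dehydrogenase that accepts retinol, gave 7.5 in knockout islets and 30.6 in control islets, at least 1.41-fold lower, with a log2 ratio of -1.83 or lower when the floor was set at the 30th percentile.

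Among receptor partners and coregulators, the RXR genes differed from each other. Rxrb gave 100.3 in knockout islets and 201 in control islets, a deficit that lies on the 2-fold limit itself, in its only probe set, and was a log2 ratio of -0.90 after adding 16 to each signal. Rxra gave 75.9 in knockout islets and 54.1 in control islets (log2 ratio 0.49), its second probe set gave 0.93 and its last was under the floor on both arrays. Rxrg was under the floor on both. Nrip1, a corepressor that retinoic acid induces in some cells, gave 130 in knockout islets and 220 in control islets in its brightest probe set. That log2 ratio of -0.76 lay just outside the range of probe sets of similar signal (-0.67 to 0.70), but its 5 other probe sets ranged from -0.52 to 0.31.

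Genes known to respond to retinoic acid did not move together. Of 17 measured, 10 were under the floor on both arrays, and the other 7 had a median log2 ratio of -0.33, with 3 above and 4 below 0. Hoxa3, a homeobox gene of the family that retinoic acid patterns in the embryo, was the single gene at least 2-fold higher, at 49.6 in knockout islets and 23.4 in control islets (2.12-fold), with 3 other probe sets under the floor on both arrays. Its log2 ratio was 1.08, and 0.74, short of 2-fold, after adding 16 to each signal. The central 95% of probe sets of similar signal ran from -1.21 to 1.28. The floor limits ratios at that mean signal, so nothing is read from the place of Hoxa3 inside that range. Hoxa5 gave 55.4 in knockout islets and 39.7 in control islets, 1.40-fold. Tgm2, a transglutaminase gene induced by retinoic acid in many cells and given here from the list after its values were seen, gave 130 in knockout islets and 163 in control islets in its brightest probe set. That log2 ratio of -0.33 lay inside the range of probe sets of similar signal (-0.71 to 0.79). The 3 other Tgm2 probe sets above the floor on both arrays had log2 ratios from -0.55 to -0.26, and 1426004_a_at gave 12.8 in knockout islets and 36.6 in control islets, at least 1.69-fold lower.

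The rest of the aldehyde dehydrogenase family centred on a log2 ratio of 0.16 (median of 13 genes above the floor on at least 1 array), with 2 genes past 2-fold upward and none downward. Their log2 ratios ran from -0.40 to 1.41, against 3.87 for Aldh1a3. Aldh16a1, a family member without the usual catalytic cysteine in mammals, gave 57.4 in knockout islets and 16.7 in control islets, at least 2.66-fold, but its second probe set was lower in knockout islets (log2 ratio -0.45). Aldh3b2 gave 46.3 in knockout islets and 22.4 in control islets, 2.07-fold, next to the floor in the control, and its log2 ratio was 0.70 after adding 16 to each signal. Aldh3b1 gave 32 in knockout islets and 5.9 in control islets, at least 1.48-fold, and its log2 ratio with the added 16 was 1.13. Aldh2, the mitochondrial acetaldehyde dehydrogenase, named here as the best known of the family, gave 119 in knockout islets and 113 in control islets in its brightest probe set.

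Genes that have been reported beside Aldh1a3 in dedifferentiated mouse beta cells differed among themselves. The gut and brain peptide gene Cck gave 273 in knockout islets and 23.5 in control islets, 11.6-fold higher in its single probe set. The control signal was next to the floor, and the log2 ratio of 3.54 was 2.02 when the floor was set at the 70th percentile, and 2.87 after adding 16 to each signal. Slc5a10, a sodium-coupled sugar transporter gene, gave 144 in knockout islets and 10.2 in control islets, at least 6.68-fold higher, or a log2 ratio of at least 1.11 with the higher floor. Neurog3, the endocrine progenitor transcription factor gene, gave 26.6 in knockout islets and 34.6 in control islets in its brighter probe set, and its other one was under the floor on both arrays. Sox9, Mycl, Pou5f1, Nanog and Gast, which mark progenitors or are normally low in mature islets, were under the floor on both arrays. Cd81 gave 452 in knockout islets and 700 in control islets, 1.55-fold lower. Its log2 ratio of -0.63 lay just outside the central 95% of probe sets of similar signal (-0.58 to 0.60). Cck and Slc5a10 lay above their ranges, which ended at 0.89 and 1.09.

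Mature beta cell markers did not show a 2-fold difference on the same arrays. By brightest probe set, their 8 log2 ratios ran from -0.54 to 0.52. The lowest was that of Ucn3, a late maturation gene at 255 in knockout islets and 371 in control islets. The highest was that of the glucose transporter gene Slc2a2, at 396 in knockout islets and 276 in control islets. Iapp had a log2 ratio of -0.11 in its brightest probe set and of -0.17, -0.11 and 0.85 in the others. Ins2 gave the values named above, and Pdx1, a beta cell transcription factor gene, gave 348 in knockout islets and 446 in control islets in its brighter probe set and a log2 ratio of 0.34 in the other. Ins1 and Mafa were not analysed here.

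**Figure D3:**
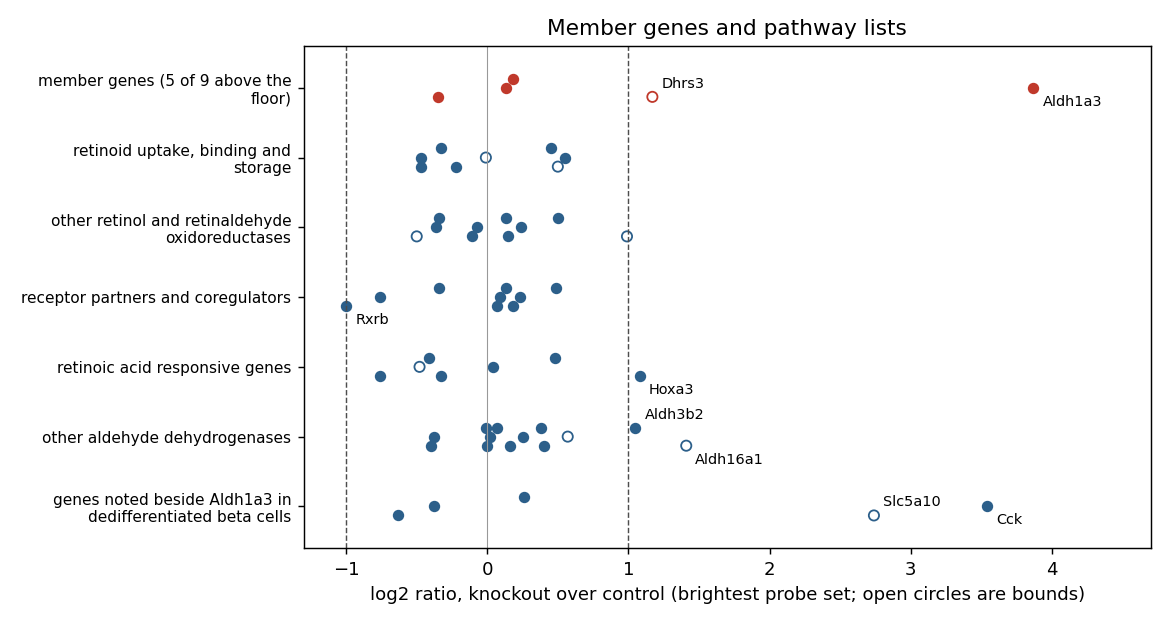
Log2 ratios of knockout over control islets (brightest probe set of each gene) for the member genes and the pathway lists with a gene above the floor on at least 1 array, with dashed lines at 2-fold, filled circles for genes above the floor on both arrays and open circles for bounds. Aldh1a3 at 3.87, Cck at 3.54 and Slc5a10 at 2.74 stand far from the remaining genes, all of which lie between -1 and 1.41.

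The genes with signals nearest to those of Aldh1a3 were found by the distance between pairs of log2 signals on the 2 arrays, after the floor. This measure sets levels of different probe sets side by side, so it describes positions on these arrays and not transcript amounts, and the control signals of A930009L07Rik, Adgrg6 and Ptger3 were set to the floor. Nearest was A930009L07Rik at a distance of 0.16 on the log2 scale, with signals of 360 in knockout islets and 2.8 in control islets. It was followed by Cck (0.26) and by Adgrg6 (0.30), an adhesion G protein-coupled receptor gene that gave 264 in knockout islets and 6.6 in control islets. Next came the prostaglandin E receptor gene Ptger3 (0.49), at 455 in knockout islets against 18.7 in control islets, and the water channel gene Aqp4 (0.89), at 316 in knockout islets against 41.1 in control islets. All 5 were low in control islets and high in knockout islets, as the measure of likeness requires, and rest on the same 2 arrays. The other probe set of A930009L07Rik gave at least 6.29-fold and that of Adgrg6 at least 6.28-fold, whereas the other Ptger3 probe set was under the floor on both arrays.

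Markers of other cells in the preparations were set beside the Aldh1a3 and Dhrs3 differences. By brightest probe set, macrophage and dendritic cell markers were higher in knockout islets in all 9 genes above the floor. Their log2 ratios ran from 0.19 to 2.42, with a summed signal 1.68 times that of control islets. The largest of these ratios was that of the mannose receptor gene Mrc1, at 131 in knockout islets and 24.5 in control islets. The smallest was that of Csf1r, whose other probe sets gave 1.16 and -0.15. Acinar markers centred on a log2 ratio of -0.94 (median of 7 genes) with a summed signal 0.539 times that of control islets. Duct markers had a median of -0.36 over 4 genes. Car2, a carbonic anhydrase gene, gave 11.2 in knockout islets and 57.8 in control islets, at least 2.66-fold lower, and Sox9, Cftr and Muc1, 3 defining genes of duct cells, were under the floor on both arrays.

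The 7 stellate, fibroblast and mesothelial markers above the floor centred on a median of -0.37, and the signals of all 11 measured genes of the list summed to 283 in knockout islets and 328 in control islets. Col1a1, Pdgfra, Wt1 and Upk3b were under the floor on both arrays, and 3 others passed 2-fold. The mesothelial gene Msln gave 80.9 in knockout islets and 32.3 in control islets (log2 ratio 1.32). The collagen gene Col3a1 gave 22.5 in knockout islets and 46 in control islets, 2.04-fold lower, and the matrix proteoglycan gene Dcn gave 19.8 in knockout islets and 61.6 in control islets, at least 2.84-fold lower. Endothelial markers had a median of -0.19 over 8 genes. Alpha cell markers had a median of -0.24 over 4 genes and summed to 20868 in knockout islets and 25507 in control islets, whereas the amino acid transporter gene Slc38a5 of that list gave 406 in knockout islets and 153 in control islets (log2 ratio 1.41). Delta and PP cell markers had a median of 0.23 over 4 genes, 3 above and 1 below 0, but summed to 20322 in knockout islets and 24162 in control islets. The gene below 0 was the PP cell hormone gene Ppy, at 8095 in knockout islets and 12702 in control islets (log2 ratio -0.65). The part of these cells in the Aldh1a3 and Dhrs3 differences was not tested.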

How the data were processed

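Islet RNA of 1 knockout and 1 control preparation (6 µg each) was hybridised to Affymetrix arrays. The authors deposited MAS5 signals, which are intensities on a linear scale. The submitters' processing notes name MAS5; version, scaling target and detection calls are not given in the sources used here. No further scaling was applied, since the 2 arrays had the same trimmed mean of 99.3 (2% cut from both ends). Platform annotation named 18193 genes through 34945 probe sets with 1 gene; 932 probe sets with several genes were left out. All 13 member probe sets matched RefSeq by Entrez identifier.

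A gene was represented by its probe set with the highest mean log2 signal after the floor (the 50th percentile of each array). Ratios are knockout over control and were counted from 2-fold on. Named were all 9 genes, the 3 largest ratios of each pathway list, the 5 nearest genes to Aldh1a3, and Zbtb20; genes and markers beyond this rule were named after their values were seen. Members and lists were chosen with earlier results of these arrays known. The calculation was tested on simulated data, with changes planted only in probe sets whose control signal was well above the floor. That test does not cover ratios with a control signal near or under the floor, such as those of Aldh1a3 and Dhrs3. Python 3.11.15, pandas 2.3.3 and statsmodels 0.14.6 were used.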

Additional observations from a re-analysis of the deposited data

How the results depend on the processing

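The median log2 ratio of all genes moved by at most 0.011 under any setting. Under array median scaling, quantile normalization and loess, Aldh1a3 stayed between 3.85 and 3.86 and Dhrs3 between 1.16 and 1.17 on the log2 scale, and the counts of the probe sets and pathway genes at least 2-fold higher or lower were the same. The Aldh1a3 ratio was 2.27 with a floor at the 70th percentile, which raises the control signal, 3.15 when 16 was added to each signal in place of a floor, and 3.25 as the mean over its probe sets. The median over the member genes was 0.49 as the mean over probe sets. Pathway genes at least 2-fold higher numbered 2, not 5, both at a 3-fold limit and with the 70th percentile as floor. With the floor at the 30th percentile they numbered 7, and 6 passed a 1.5-fold limit. Member probe sets counted as higher numbered 5, not 4, under each of these latter settings. Pathway genes at least 2-fold lower numbered 4, not 1, with the floor at the 30th percentile, 3 at a 1.5-fold limit and 0 at a 3-fold limit. With 16 added to each signal the pathway count stayed at 5 with other genes, since Hoxa3 (0.74) and Aldh3b2 (0.70) were no longer past 2-fold while Rdh12 (1.72) and Aldh3b1 (1.13) were. Choosing the brightest probe set before the floor, an alternative added after seeing the data, left the main values of Aldh1a3, Dhrs3, the member median and the pathway counts unchanged. Rdh12 then had no ratio, since the probe set chosen, with 14.1 in knockout islets and 11.4 in control islets, was under the floor on both arrays. Dhrs3 was 1.54 with the floor at the 30th percentile, fell short of 2-fold at 0.98 with the added 16, and was under the floor on both arrays at the 70th percentile, which left 3 member probe sets at least 2-fold higher under either of the last 2 settings. No call changed direction. Aldh1a1, Rara, Rarb and Cyp26b1 are limited by signals near background, and no paired analysis was possible because each group has 1 array.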
